A study of Mus musculus with 5 samples.

Results

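Il1rl1, Gata3, Areg, Rora, Il7r and Klrg1 are 6 genes that group 2 innate lymphoid cells (ILC2s) are known to express together. The 6 were chosen by their measured shares of expressing cells in the T, NK and proliferating classes of these same libraries, so their levels are given as a description and none was tested. All 6 were found by symbol in both deposited tumour matrices, among 18087 genes for the 5555 tumours and 19427 for CT26. Single live CD45+ leukocytes had been sorted from tumours and captured with 10x Genomics 3' chemistry. C57BL/6 mice carried subcutaneous 5555 melanomas for 4 days, from a Ptgs+/+ line, from a Ptgs-/- line, or from the Ptgs-/- line in mice treated with anti-NK1.1 (clone PK136) and anti-Asialo GM-1 to deplete NK cells, and BALB/c mice carried CT26 tumours for 12 days. The labels name the CT26 library "vehicle". Ptgs is deleted in the tumour line and not in the mice, so every leukocyte described here has an intact Ptgs. Each group is 1 library, the labels do not say how many tumours or mice went into it, and the 5555 libraries also received spiked-in cells that the labels do not describe.

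ILC2s are tissue-resident lymphocytes that lack rearranged antigen receptors, and IL-33 activates them through the receptor that Il1rl1 encodes (ST2). GATA3 and RORα are the transcription factors on which their development rests, the IL-7 receptor carries a survival signal, and amphiregulin, encoded by Areg, is an EGF receptor ligand they release in tissue repair. None of these genes is private to ILC2s: regulatory T cells in tissues can carry ST2, GATA3, KLRG1 and amphiregulin, mast cells carry ST2, and macrophages and dendritic cells (DCs) make amphiregulin.

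Promoter sequence bears on 2 of these roles, because GATA3 binds GATA letters and amphiregulin is a known target of cyclic AMP signalling through the element TGACGTCA. RefSeq windows on GRCm38.p6 (the NCBI name of mm10) were found for 5 of the 6 members, with 2 start sites for Il1rl1. The 250 bases before each start were searched on both strands for AGATAA or TGATAA, and for TGACGTCA, which reads the same on either strand; no match of one overlaps a match of the other. Il1rl1 and Areg are shown because theirs were the windows of the members that held a match. Matches are in capitals and the last base printed is the one before the start.
Il1rl1 start 1, chr1:40429320-40429569, plus strand: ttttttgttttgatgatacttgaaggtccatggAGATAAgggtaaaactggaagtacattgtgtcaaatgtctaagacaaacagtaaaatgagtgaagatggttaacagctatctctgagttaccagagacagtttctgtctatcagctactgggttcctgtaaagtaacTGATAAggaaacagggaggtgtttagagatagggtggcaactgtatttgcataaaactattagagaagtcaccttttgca
Il1rl1 start 2, chr1:40439379-40439628, plus strand: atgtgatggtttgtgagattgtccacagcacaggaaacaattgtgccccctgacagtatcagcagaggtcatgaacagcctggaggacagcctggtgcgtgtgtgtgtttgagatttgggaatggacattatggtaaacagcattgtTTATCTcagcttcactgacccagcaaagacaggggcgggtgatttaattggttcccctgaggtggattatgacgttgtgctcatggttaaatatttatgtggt
Areg, chr5:91139349-91139598, plus strand: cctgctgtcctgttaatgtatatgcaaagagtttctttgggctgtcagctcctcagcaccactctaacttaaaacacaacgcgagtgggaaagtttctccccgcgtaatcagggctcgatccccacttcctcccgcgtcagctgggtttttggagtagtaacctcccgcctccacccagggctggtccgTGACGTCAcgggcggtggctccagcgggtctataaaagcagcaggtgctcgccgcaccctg
The window of the first Il1rl1 start held 2 GATA matches, which begin 217 and 80 bases before the start, and that of the second held 1, which begins 103 bases before and lies on the minus strand. The Areg match begins 61 bases before its start. Of 32817 windows of this length, 16.6% held a GATA match, 2.72% held at least 2 and 1.55% held TGACGTCA. The windows of Gata3, Rora and Il7r held neither, and Klrg1 had no window. A match is a run of letters and nothing was measured on these promoters, and 3' libraries cannot tell from which of its starts Il1rl1 was transcribed. The genes lie at chr1:40404864-40465418 (Il1rl1), chr2:9857078-9887953 (Gata3), chr5:91139599-91148432 (Areg), chr9:68653404-69388246 (Rora), chr15:9506159-9529941 (Il7r) and chr6:122270596-122282833 (Klrg1).

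The libraries held 3262 cells (Ptgs+/+), 4677 (Ptgs-/-), 3879 (NK-depleted Ptgs-/-) and 8987 (CT26), with medians of 3634 to 5462 molecules (UMIs) per cell and 13341131 to 39748603 UMIs in all. Cell classes are the authors' own annotation, which has no class for ILC2s, mast cells or basophils. A cell expresses a gene here if it has at least 1 UMI of it. Groups cannot be tested against each other for want of a repeat library, and the 95% intervals (exact Clopper-Pearson for shares, exact conditional binomial for UMI ratios) cover counting error only, not differences between mice. Those of UMI ratios treat each UMI as a separate draw, so they also leave out differences between cells. As a measure of free RNA, none of the members was seen in 23, 44 and 36 B cells of the 5555 libraries (median UMIs 1131 to 1671), which allows shares of up to 13.0%, 6.82% and 8.33%. Such a limit for a count of 0 is 3 cells of the total, which is not the upper Clopper-Pearson bound. CT26 has no B cell class, and the members were read there in its 351 type 1 conventional DCs (cDC1, median 6871 UMIs), a class picked with these values known. Il1rl1 was seen in 0.570% of these, Gata3 and Areg in 1.14% each, Klrg1 in 0.855%, Rora in 3.13%, and Il7r and Cd3e in 4.27% each. CT26 and the 5555 libraries share 23 cell barcodes.

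**Figure D1:**
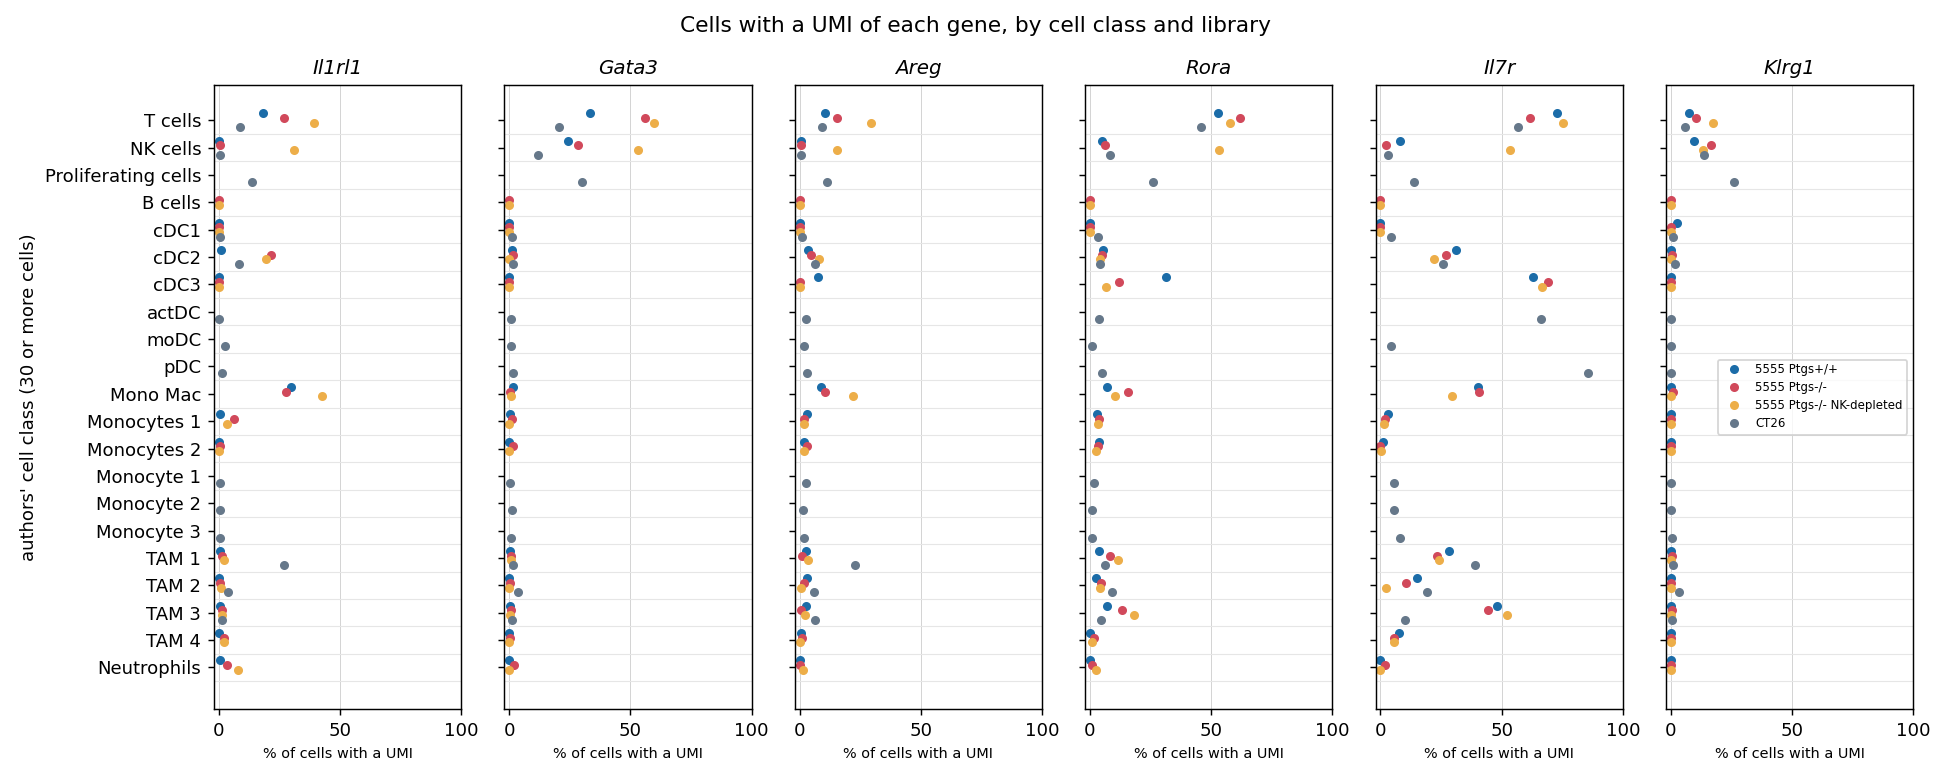
Share of cells with at least 1 UMI of each member (x axis, %), for each cell class of the authors with 30 or more cells (y axis); 1 point is 1 library. Gata3 and Klrg1 points lie away from 0 in T, NK and proliferating cells, and Il7r points in the most classes, up to 85.8% of plasmacytoid DCs. Il1rl1 points lie away from 0 in T and proliferating cells, Mono Mac and CT26 TAM 1. In cDC2 they do so outside Ptgs+/+ tumours, and in NK cells only after NK depletion.

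The receptor gene Il1rl1 was found in a minority of cells annotated T. It was seen in 12 of 66 T cells of Ptgs+/+ tumours (18.2%, interval 9.76 to 29.6), in 58 of 214 of Ptgs-/- tumours (27.1%, 21.3 to 33.6), in 43 of 109 after NK depletion (39.4%, 30.2 to 49.3) and in 66 of 767 in CT26 (8.60%, 6.72 to 10.8). NK-depleted Ptgs-/- tumours stood highest and CT26 lowest. Neighbouring intervals overlap along this order. The mean level was 295, 394, 597 and 77.5 CPM (UMIs scaled to the same total in every cell) over T cells in the same order of libraries. T cells were not equally deep, with medians of 1642, 2076, 2372 and 1706 UMIs. After thinning of each cell to 1000 UMIs, which left out 5, 3, 0 and 77 T cells, Il1rl1 was seen in 13.1%, 19.9%, 30.3% and 6.23%. The order of the libraries was the same at this depth, and neighbouring intervals along it overlap here too.

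Gata3, the transcription factor of both ILC2s and type 2 helper T cells, was the most frequent of the 3 leading genes. It was seen in 22 of 66 T cells of Ptgs+/+ tumours (33.3%), in 120 of 214 of Ptgs-/- tumours (56.1%), in 65 of 109 after NK depletion (59.6%, 49.8 to 68.9) and in 158 of 767 in CT26 (20.6%, 17.8 to 23.6). Ptgs-/- and NK-depleted Ptgs-/- tumours had overlapping intervals at the top. Its mean level was 474, 694, 1140 and 172 CPM, and at 1000 UMIs it was seen in 27.9%, 38.9%, 44.0% and 12.8%. At 500 UMIs the shares of Ptgs+/+ and Ptgs-/- tumours were 24.2% (14.5 to 36.4) and 23.4% (17.9 to 29.6), so the gap between these libraries was not seen at that depth. Rora, which encodes RORα, was the most even of the transcription factors over the 5555 libraries, at 53.0% (35 cells), 61.7% (132), 57.8% (63) and, in CT26, 45.9% (352). At equal depth its shares were 42.6%, 40.3%, 33.9% and 34.1%, an order unlike that of the unthinned shares.

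Areg, the effector gene, was seen in 7 of 66 T cells of Ptgs+/+ tumours (10.6%, 4.37 to 20.6), in 33 of 214 of Ptgs-/- tumours (15.4%, 10.9 to 21.0), in 32 of 109 after NK depletion (29.4%, 21.0 to 38.8) and in 70 of 767 in CT26 (9.13%, 7.18 to 11.4). The NK-depleted library was the high one, its interval just touching that of undepleted Ptgs-/- tumours. At 1000 UMIs Areg was seen in 8.20%, 10.9%, 19.3% and 7.25%. Il7r, a receptor that most resting T cells carry as well, was seen in 72.7%, 61.7%, 75.2% and 56.7% of T cells. Klrg1, an inhibitory receptor that binds cadherins and marks mature ILC2s and effector lymphocytes, was the rarest, in 5 of 66 (7.58%), 22 of 214 (10.3%), 19 of 109 (17.4%, 10.8 to 25.9) and 46 of 767 (6.00%). Thinned to 1000 UMIs, Klrg1 shares were 3.28%, 7.58%, 4.59% and 3.33%, so that the NK-depleted library was not the highest. It was the highest at 500 UMIs (4.55%, 3.74%, 5.50% and 2.61%) and at 2000 (11.8%, 15.1%, 16.7% and 5.91%), and the intervals of the 5555 libraries overlap at each of these depths.

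**Figure D2:**
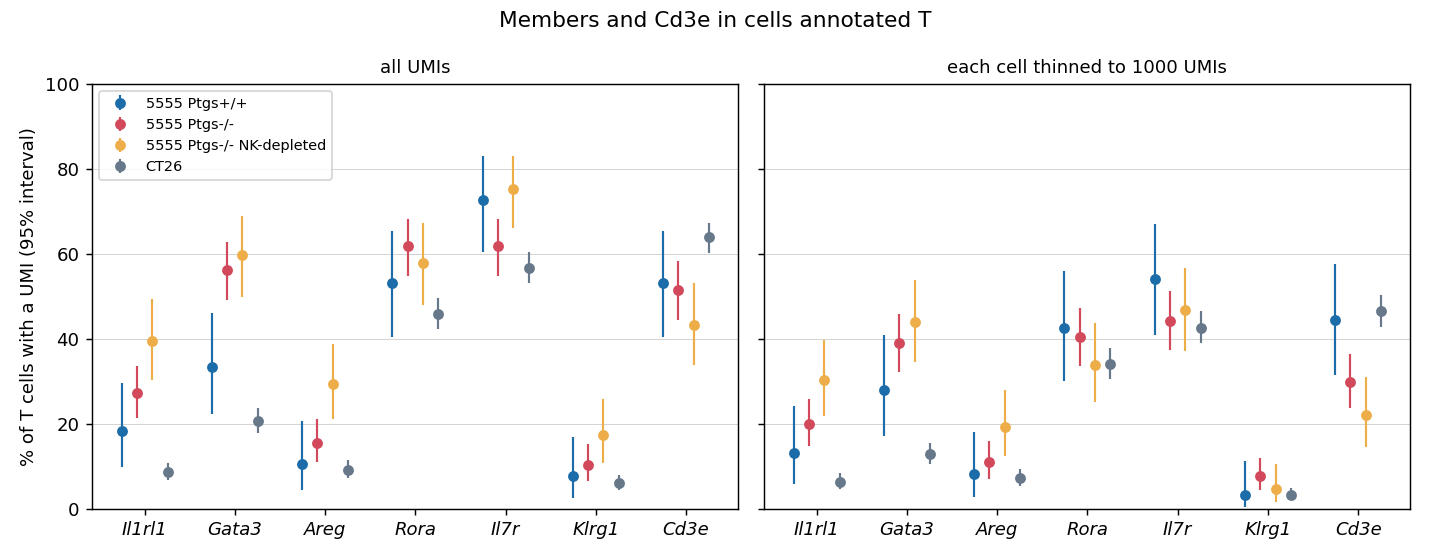
Share of cells annotated T with a UMI (y axis, %, with exact 95% intervals) of each member and of Cd3e (x axis), by library, with all UMIs (left) and with each cell thinned to 1000 UMIs (right). Il1rl1 and Gata3 were highest after NK depletion on both sides, at 39.4% and 59.6% with all UMIs and 30.3% and 44.0% after thinning, while Cd3e was lowest there, at 43.1% and 22.0%.

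The study removed prostaglandin synthesis from the tumour cells, and then NK cells from mice with such tumours. These are 2 comparisons that share the Ptgs-/- library. Folds are differences of log2(mean CPM + 5), and a gene was counted as higher or lower past 1.5-fold, by size alone. In T cells of Ptgs-/- over Ptgs+/+ tumours, 0 of the 6 members passed this, against a background of 41.7% of the 5819 genes that reached 5% of T cells in either library (23.2% higher, 18.5% lower). Gata3 differed by 0.55 (UMI ratio 1.37, 1.02 to 1.85), Il1rl1 by 0.41 (1.26, 0.873 to 1.88), Klrg1 by 0.42 (1.82, 0.776 to 5.22, from 46 and 6 UMIs), Areg by 0.16, Rora by -0.19 and Il7r by -0.42 (0.727, 0.596 to 0.891). Their median was 0.29, against 0.04 over all genes. A fold past 1.5 in the mean over cells was thus common among all genes in a group of 66 cells and reached by no member, while by UMI ratio Klrg1 lay past it with an interval that includes 1. The makeup of the T class differed beside this. The gamma delta T cell genes Trdc (-1.39), Tcrg-C1 (-1.10), Cd163l1 (-1.08) and Trdv4 (-0.63) were lower in Ptgs-/- tumours. In the list of T cell genes, Cd28 (1.48) and Trac (0.62) were higher and Trbc1 was lower (-0.84, UMI ratio 0.608, 0.470 to 0.792). Also higher were Cd8b1 (1.97, from 37 and 2 UMIs, UMI ratio 4.40, 1.13 to 37.6) and Cd8a (0.66, from 24 and 3 UMIs), and the rest of that list lay inside 1.5-fold. From the list of macrophage and monocyte genes, Lyz2 (0.97, UMI ratio 2.38, 0.739 to 12.2) and Ly6c2 (1.25) were higher. Cd8b1, Cd8a, Lyz2 and Ly6c2 reached the 5% filter in the Ptgs-/- library and not in the Ptgs+/+ one. Their part in the members' values was not tested.

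In T cells of NK-depleted over undepleted Ptgs-/- tumours, 3 of the 6 members were higher past 1.5-fold, beside 15.6% of 6172 genes (15.8% were lower, 31.4% either). Areg was the furthest, at 1.13 on the log2 scale (UMI ratio 2.26, 1.78 to 2.87). Gata3 followed at 0.71 (1.71, 1.46 to 2.01) and Il1rl1 at 0.59 (1.51, 1.21 to 1.89), just past the 1.5-fold line. Rora (0.19), Il7r (0.07) and Klrg1 (0.32) lay inside it, with UMI ratios of 1.10, 1.08 and 1.13 whose intervals include 1. The members' median was 0.46, and that of all genes 0.00. The makeup of the T class differed here too: the NK gene Klrk1 (-1.58), the gamma delta genes Trdc (-0.85), Tcrg-C1 (-0.70) and Cd163l1 (-1.04), and Cd8b1 (-1.01), each above the filter in both libraries, were lower after depletion. A larger share of ILC2-type cells in the class and more RNA of these genes per cell cannot be told apart from a mean over T cells.

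The rest of the ILC2 programme was read from lists of receptors and partners, transcription factors and effectors. Of 7 effectors 2 were frequent enough in T cells to compare. Csf2, encoding the growth factor GM-CSF, had 1 UMI in T cells of Ptgs+/+ tumours, 51 in Ptgs-/- and 80 after NK depletion. It reached the 5% filter in the Ptgs-/- and NK-depleted libraries only. Its UMI ratio was 12.1 for Ptgs-/- over Ptgs+/+ (2.08 to 488), and its log2 fold was 1.13 for depleted over undepleted (UMI ratio 2.81, 1.95 to 4.07). Arg1, encoding arginase 1, was past 1.5-fold in the former comparison (0.66, UMI ratio 1.87, 0.894 to 4.52) and level in the latter (-0.01). Of 8 transcription factors, Tox (-0.92) and Lmo4 (-1.91) were lower in Ptgs-/- than in Ptgs+/+ T cells, beside 18.5% of all genes. Zbtb16 (-1.75) reached the filter in Ptgs+/+ and not in Ptgs-/- T cells, which fixed its direction, so it is not counted. The other 5 stayed inside 1.5-fold. After depletion Tcf7 (0.80), Nfil3 (1.06) and Lmo4 (1.14) were the 3 higher ones, beside 15.6% of all genes. The Nfil3 UMI ratio was 2.07, from 15 and 13 UMIs, with an interval (0.917 to 4.72) that includes 1. Of 9 receptors and partners 5 could be compared. Crlf2, a chain of the TSLP receptor, was lower (UMI ratio 0.389, 0.174 to 0.911) in Ptgs-/- over Ptgs+/+ tumours. Myd88, the adaptor downstream of ST2, reached the filter in Ptgs-/- and not in Ptgs+/+ tumours, with 2 and 14 UMIs in Ptgs+/+ and Ptgs-/- (UMI ratio 1.66, 0.382 to 15.1). After depletion 0 of the 5 passed 1.5-fold, beside 31.4% of all genes in either direction. The ligands and partners of the members that were looked for in T cells (Il33, Tslp, Il7, Egfr, Cdh1 and Cdh2) did not reach the 5% filter.

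Co-detection with Cd3e, a chain of the T cell receptor complex, was read for cells with and without each member. Cd3e was seen in 35 of 66, 110 of 214, 47 of 109 and 489 of 767 cells annotated T (Ptgs+/+, Ptgs-/-, NK-depleted, CT26). At this depth, lack of a UMI of Cd3e does not show that a cell is not a T cell. In T cells with Il1rl1, Cd3e was seen in 3 of 12 cells of Ptgs+/+ tumours (25.0%, 5.49 to 57.2), in 24 of 58 of Ptgs-/- tumours (41.4%, 28.6 to 55.1), in 6 of 43 after NK depletion (14.0%, 5.30 to 27.9) and in 38 of 66 in CT26 (57.6%, 44.8 to 69.7). In T cells without Il1rl1 the shares were 59.3% (32 of 54), 55.1% (86 of 156), 62.1% (41 of 66, 49.3 to 73.8) and 64.3% (451 of 701). Cd3e was thus less frequent beside Il1rl1 in each library, but the intervals were separate only after NK depletion. At 1000 UMIs per cell the pairs were 25.0% and 47.2%, 14.3% and 33.7%, 3.03% and 30.3%, and 34.9% and 47.3%, with and without Il1rl1, in the order Ptgs+/+, Ptgs-/-, NK-depleted and CT26.

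The same comparison for Areg gave the widest gap of all. After NK depletion, 2 of 32 T cells with Areg had Cd3e (6.25%, 0.766 to 20.8) and 45 of 77 without it did (58.4%, 46.6 to 69.6). In CT26 the order was the other way round, with Cd3e in 51 of 70 T cells with Areg (72.9%, 60.9 to 82.8) and 438 of 697 without (62.8%, 59.1 to 66.4), and these intervals overlap. For Gata3, Cd3e was seen in 21 of 65 cells with it after depletion (32.3%, 21.2 to 45.1) and 26 of 44 without (59.1%, 43.2 to 73.7), also overlapping. In Ptgs-/- tumours the Gata3 shares were close, 49.2% (59 of 120) and 54.3% (51 of 94). Rora differed in direction among libraries: Cd3e was seen in 36.5% of T cells with Rora and 52.2% without after depletion, but in 68.8% and 59.5% in CT26. Il7r did likewise, with 37.8% and 59.3% after depletion and 68.0% and 58.1% in CT26. For Klrg1 the counts were small, 3 of 19 cells with it and 44 of 90 without after depletion.

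**Figure D3:**
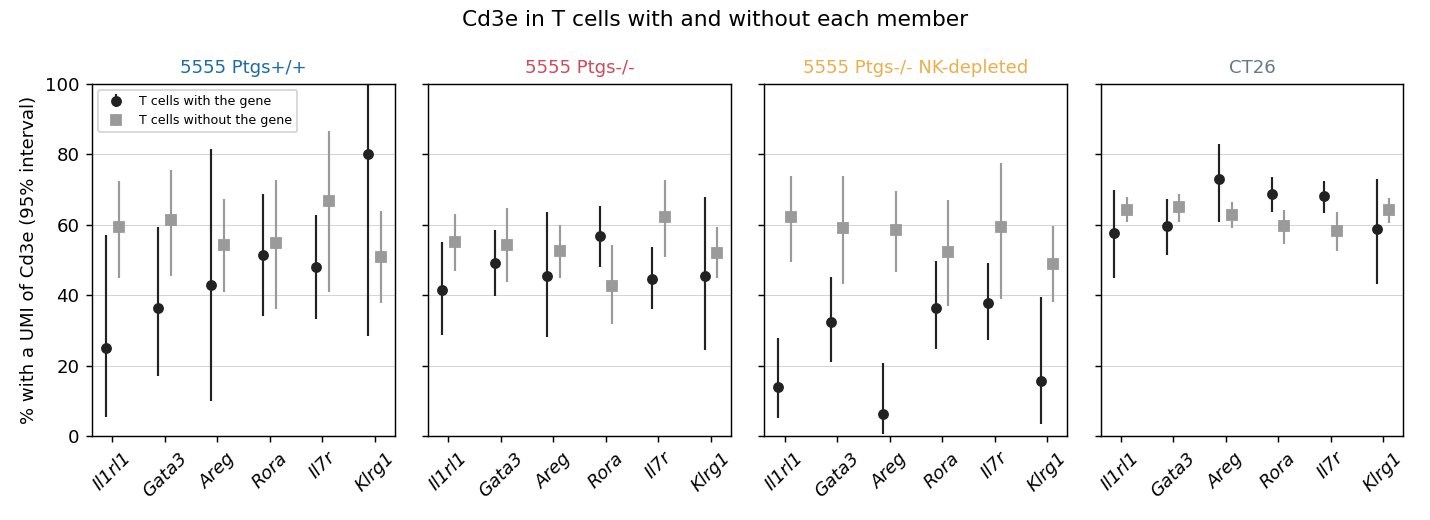
Share of cells annotated T with a UMI of Cd3e (y axis, %, with exact 95% intervals) among cells with (circles) and without (squares) each member (x axis), 1 panel per library. After NK depletion the intervals for Il1rl1 (14.0% and 62.1%) and Areg (6.25% and 58.4%) do not meet, and in CT26 the 2 intervals of every member overlap.

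A broader receptor criterion narrowed the gap in the 5555 libraries and widened it in CT26. Any of Cd3e, Cd3d, Cd3g, Trac, Trbc1 and Trbc2 was seen in 75.0%, 84.5%, 74.4% and 87.9% of T cells with Il1rl1 (Ptgs+/+, Ptgs-/-, NK-depleted, CT26) and in 96.3%, 96.2%, 98.5% and 97.1% of those without. The intervals were separate after NK depletion (58.8 to 86.5 with Il1rl1, from 91.8 without) and in CT26 (77.5 to 94.6, and 95.6 to 98.2). These 6 genes together are not specific to T cells here. NK cells without Il1rl1 held at least 1 of them in 64.2% (Ptgs+/+), 71.2% (Ptgs-/-) and 82.9% (CT26). The 96.8% found after NK depletion does not bear on this, because Cd3e was seen in 53.3% of that library's NK class. The cells annotated T with none of the 6 were few, 5, 15, 12 and 28. Il1rl1 was seen in 3, 9, 11 and 8 of them, Gata3 in 2, 13, 11 and 4, and Areg in 2, 4, 10 and 2. In the 5555 libraries these receptor-negative cells were therefore mostly Il1rl1 cells, while in CT26 they were not. There, the same 28 cells held genes of a mast cell and basophil list at 47944 CPM over summed UMIs, led by Cpa3, Tpsb2 and Cma1 in 9 cells each.

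The members were seen in the same T cells. Gata3 was seen in 83.3%, 81.0%, 93.0% and 39.4% of T cells with Il1rl1, and in 22.2%, 46.8%, 37.9% and 18.8% of those without. Areg was seen in 25.0%, 41.4%, 67.4% and 21.2% with Il1rl1 and in 7.41%, 5.77%, 4.55% and 7.99% without. Klrg1 was seen in 25.0%, 34.5%, 39.5% and 12.1% with and 3.70%, 1.28%, 3.03% and 5.42% without. Of the T cells with Klrg1, 3 of 5, 20 of 22 and 17 of 19 in the 5555 libraries therefore also had Il1rl1. Il7r did not go with Il1rl1: it was seen in 75.0%, 55.2%, 76.7% and 53.0% of T cells with it and in 72.2%, 64.1%, 74.2% and 57.1% without. At least 4 of the 6 members were found in 54.8% of the 62 T cells without Cd3e after NK depletion (41.7 to 67.5) and in 8.51% of the 47 with it (2.37 to 20.4). The corresponding shares were 22.1% and 12.7% in Ptgs-/-, 19.4% and 2.86% in Ptgs+/+ and 4.68% and 3.68% in CT26, with overlapping intervals in each pair.

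Counted over whole libraries, cells with Il1rl1 and Gata3 but no Cd3e made up 0.245% of Ptgs+/+ leukocytes (8 cells, 0.106 to 0.483), 0.706% of Ptgs-/- (33 cells, 0.486 to 0.989), 0.980% after NK depletion (38 cells, 0.694 to 1.34) and 0.300% in CT26 (27 cells, 0.198 to 0.437). The interval of Ptgs+/+ tumours just fails to meet that of Ptgs-/- tumours, and that of CT26 lies below it. Shares over whole libraries depend also on the size of the T class. Among cells annotated T alone, such cells were 10.6% in Ptgs+/+ (4.37 to 20.6) and 14.0% in Ptgs-/- tumours (9.66 to 19.4), with overlapping intervals. They were 31.2% after NK depletion (22.7 to 40.8) and 1.69% in CT26 (0.905 to 2.88). Of the 27 cells in CT26, 13 were annotated T, 1 Proliferating and 13 lay in myeloid classes. By contrast, 30 of the 33 in Ptgs-/- tumours and 34 of the 38 after depletion were annotated T. Cells with Il1rl1, Gata3 and Foxp3, the regulatory T cell factor, made up 0.0920%, 0.342%, 0.206% and 0.156%. At 1000 UMIs the cells with Il1rl1 and Gata3 but no Cd3e were 5 (0.166%, 0.0538 to 0.386), 22 (0.486%, 0.305 to 0.735), 28 (0.742%, 0.494 to 1.07) and 8 (0.0914%, 0.0395 to 0.180), so the intervals of Ptgs+/+ and Ptgs-/- tumours overlap at equal depth, and those of CT26 and Ptgs-/- tumours do not.

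T cells with Il1rl1 were then split by Cd3e, a split chosen after these values were seen. Those without Cd3e numbered 9, 34, 37 and 28 (Ptgs+/+, Ptgs-/-, NK-depleted, CT26), with medians of 1733, 2044, 2333 and 1692 UMIs. Those with Cd3e numbered 3, 24, 6 and 38, with medians of 1582, 2462, 2587 and 1805 UMIs, so a lower depth accompanied the absence of Cd3e in 3 of 4 libraries. In the cells without Cd3e, ILC2 effector genes were seen. Arg1, which ILC2s are known to express, was seen in 4 of 9, 19 of 34 (55.9%, 37.9 to 72.8), 21 of 37 (56.8%, 39.5 to 72.9) and 4 of 28. Csf2 was seen in 1, 12, 13 and 3 of them, Il5, the eosinophil growth factor, in 1, 7, 5 and 3, and Il13 in 0, 2, 2 and 1. None of these 4 genes was seen in any of the cells with both Il1rl1 and Cd3e. In CT26 the 28 cells without Cd3e also held mast cell and basophil genes, 9 of 10 in at least 10% of the cells. These came to 25717 CPM over summed UMIs in all, against 25.1 CPM in the 38 cells with Cd3e. In the 5555 libraries the mast cell and basophil genes came to 331, 157 and 304 CPM without Cd3e and to 0, 32.5 and 0 with it. Their part in the effector counts was not tested.

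Cells with both Il1rl1 and Cd3e showed genes of regulatory T cells. Foxp3 was seen in 1 of 3, 14 of 24 (58.3%), 2 of 6 and 17 of 38 (44.7%) of them and in 2 of 9, 5 of 34, 2 of 37 and 2 of 28 of the cells without Cd3e. Ctla4, the inhibitory receptor of regulatory T cells, was seen in 3, 19, 5 and 21 with Cd3e against 2, 6, 3 and 7 without. Tnfrsf4, encoding OX40, was seen in 1, 16, 5 and 20 with Cd3e against 1, 4, 3 and 6 without. Summed over 6 regulatory T cell genes, the cells with Cd3e held 6570, 6823, 6416 and 4795 CPM over summed UMIs and those without 2782, 3081, 1932 and 1594. For the ILC2 effector genes the sums were 0, 16.2, 0 and 0 with Cd3e and 927, 1940, 1874 and 960 without.

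Other genes followed the split less sharply. Id2, a factor all innate lymphoid cells need, was seen in 7 of 9, 27 of 34, 31 of 37 and 12 of 28 cells without Cd3e, and in 2 of 3, 11 of 24, 4 of 6 and 12 of 38 with it. Il2ra, encoding CD25, which regulatory T cells and ILC2s share, was seen in 2, 19, 23 and 6 without Cd3e and in 1, 10, 2 and 15 with it. Among the members, Areg was seen in 3, 14, 28 and 6 of the cells without Cd3e and in 0, 10, 1 and 8 of those with it. In Ptgs-/- tumours Areg was thus as frequent in either part, and after depletion it lay almost wholly in the cells without Cd3e. Il7r was seen in 8, 25, 30 and 13 without Cd3e against 1, 7, 3 and 22 with it. T cell genes did not vanish with Cd3e: Trac was seen in 3, 5, 4 and 3 of the cells without Cd3e, and Cd28 in 2, 9, 5 and 4.

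**Figure D4:**
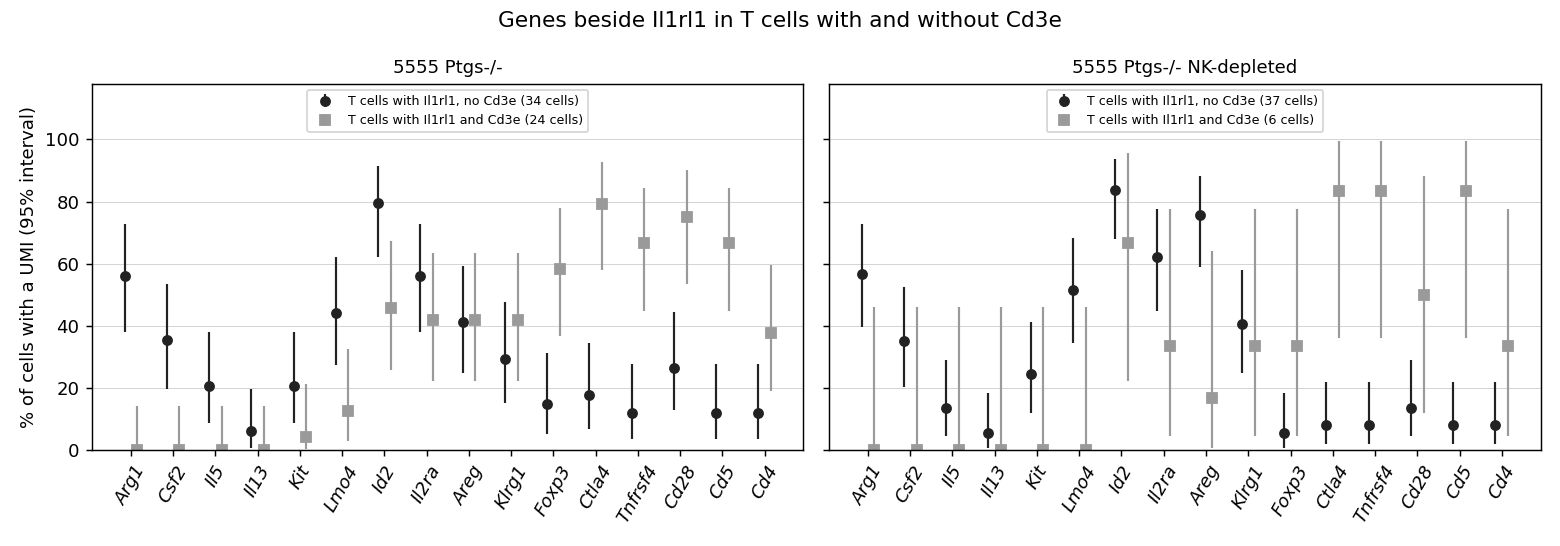
Share of cells with a UMI (y axis, %, with exact 95% intervals) of 16 genes (x axis) in T cells with Il1rl1 that lack Cd3e (circles) or have it (squares), in Ptgs-/- tumours (left) and after NK depletion (right). Arg1, Csf2, Il5 and Il13 are at 0 in the 24 and 6 cells with Cd3e, where the shares of Foxp3, Ctla4, Tnfrsf4, Cd5 and Cd4 are higher than in the 34 and 37 cells without.

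In cells annotated NK, Il1rl1 was close to absent where NK cells had not been depleted. It was seen in 0 of 137 cells of Ptgs+/+ tumours (which allows up to 2.19%), in 3 of 510 of Ptgs-/- tumours (0.588%) and in 6 of 1346 in CT26 (0.446%). In CT26 this is no higher than in cDC1s (0.570%), but cDC1s are deeper than these NK cells (median 2240 UMIs). At 500 UMIs per cell Il1rl1 was seen in 0 of 1346 NK cells and 0 of 351 cDC1s of CT26. With all UMIs, Areg was seen in 0.730%, 0.784% and 0.743% of NK cells, the last again no higher than in the deeper cDC1s (1.14%), and Il7r in 8.03%, 2.16% and 3.12%. Gata3 and Klrg1, which NK cells are known to express, were seen in 24.1% and 9.49% (Ptgs+/+), 28.2% and 16.7% (Ptgs-/-) and 12.0% and 13.7% (CT26). Gata3, Rora and Klrg1 reached 5% of NK cells in both undepleted 5555 libraries. Of these, Klrg1 was higher past 1.5-fold in Ptgs-/- over Ptgs+/+ tumours (0.74, UMI ratio 1.41, 0.885 to 2.37), against 13.3% of 6093 genes higher (10.6% lower, 23.9% either). Il7r passed the filter through Ptgs+/+ tumours alone, with a UMI ratio of 0.296 (0.162 to 0.546).

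After NK depletion the NK class held 45 cells, and these carried another set of genes. Il1rl1 was seen in 14 of them (31.1%, 18.2 to 46.6), Gata3, Rora and Il7r in 53.3% each, Areg in 15.6% and Klrg1 in 13.3%. Of the 12 NK genes, Ncr1, Eomes, Klra8, Gzma, Prf1 and Xcl1 were at 0, and the sum over the list was 307 CPM over summed UMIs, against 13757, 13255 and 22454 in the NK classes of Ptgs+/+, Ptgs-/- and CT26. Klrb1c, which encodes the depleting antibody's target NK1.1, was seen in 4.44% and Cd3e in 53.3%. The defining markers of the label were thus absent or nearly so in the 45 cells.

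Of the 3 members above the filter in both Ptgs-/- NK classes, Rora (3.70) and Gata3 (1.75) were higher past 1.5-fold after depletion, beside 27.2% of 6910 genes (22.7% were lower, 49.9% either). Klrg1, the third, was lower at -0.78 by the mean over cells, while its UMI ratio was 1.15 (0.649 to 1.92). Il7r (4.55), Il1rl1 (4.34) and Areg (3.77) passed the filter only through the depleted library, which fixed their direction, so they are not counted. In the 14 cells with Il1rl1 (median 4144 UMIs), Gata3 was seen in 11, Rora in 10, Il7r in 9, Cd3e in 8, Areg in 5 and Klrg1 in 5. Regulatory T cell and ILC2 genes were found among them, Tnfrsf18 in 11, Icos in 10, Ctla4 in 7, Foxp3 in 5, and Arg1 in 2, while 9 of the 12 NK genes were at 0. Cd3e was as frequent with Il1rl1 (8 of 14) as without it (16 of 31).

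The Proliferating class exists only in CT26 (123 cells, median 6239 UMIs). Il1rl1 was seen in 17 of these cells (13.8%, 8.26 to 21.2), Gata3 in 37 (30.1%), Rora and Klrg1 in 32 each (26.0%), Il7r in 17 (13.8%) and Areg in 14 (11.4%). Areg lay with Cd3e there, in 13 of 14 cells against 32 of 109 without Areg. Il1rl1 did not, with Cd3e in 3 of 17 cells (17.6%) against 42 of 106, and any of the 6 receptor genes in 6 of 17 against 105 of 106. The cells with Il1rl1 held mast cell and basophil genes instead. The protease genes Cpa3, Mcpt8 and Cma1 and the IgE receptor chain gene Fcer1a were seen in 11 of 17 each, against 2, 2, 5 and 1 of the 106 cells without Il1rl1. Kit, the stem cell factor receptor of mast cells, was seen in 11 of 17 and 3 of 106. Gata3 was seen in 3 of the 17, and the NK gene Ncr1 in 0 of 17 against 64 of 106.

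Cells with at least 2 of Mcpt8, Mcpt4, Cpa3, Tpsb2, Cma1, Fcer1a and Ms4a2 were counted in all libraries after this was seen. This count does not tell mast cells from basophils. CT26 held 34, of which 13 were annotated Proliferating (12 with Il1rl1, holding 35 of the class's 46 Il1rl1 UMIs) and 10 annotated T (5 with Il1rl1). Without them, Il1rl1 was seen in 8.06% of CT26 T cells (61 of 757) and in 4.55% of Proliferating cells (5 of 110, 1.49 to 10.3), against 8.60% and 13.8% with them. The share in T cells thus moved little and that in Proliferating cells lay below its former interval (8.26 to 21.2). None of the T cells of the 5555 libraries was such a cell. In Ptgs-/- tumours 3 cells of this kind held 22 of the 29 Il1rl1 UMIs of TAM 3, and 2 held 10 of the 16 of TAM 4. In Ptgs+/+ tumours 5 such cells lay in TAM 3, and 0 of them had Il1rl1.

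Most cells with Il1rl1 were not lymphocytes by annotation. T cells made up 12 of the 39 cells with Il1rl1 in Ptgs+/+ tumours, 58 of 317 in Ptgs-/-, 43 of 319 after NK depletion and 66 of 333 in CT26. Over all myeloid classes Il1rl1 was seen in 0.889%, 6.55%, 7.10% and 3.61% of cells, while Gata3 stayed at 0.296%, 0.947%, 0.163% and 1.47%. The mean level was lower than in T cells. In Mono Mac, the myeloid class of the 5555 libraries with the highest share, it was 46.9, 49.4 and 64.4 CPM, against 295, 394 and 597 in their T cells.

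**Figure D5:**
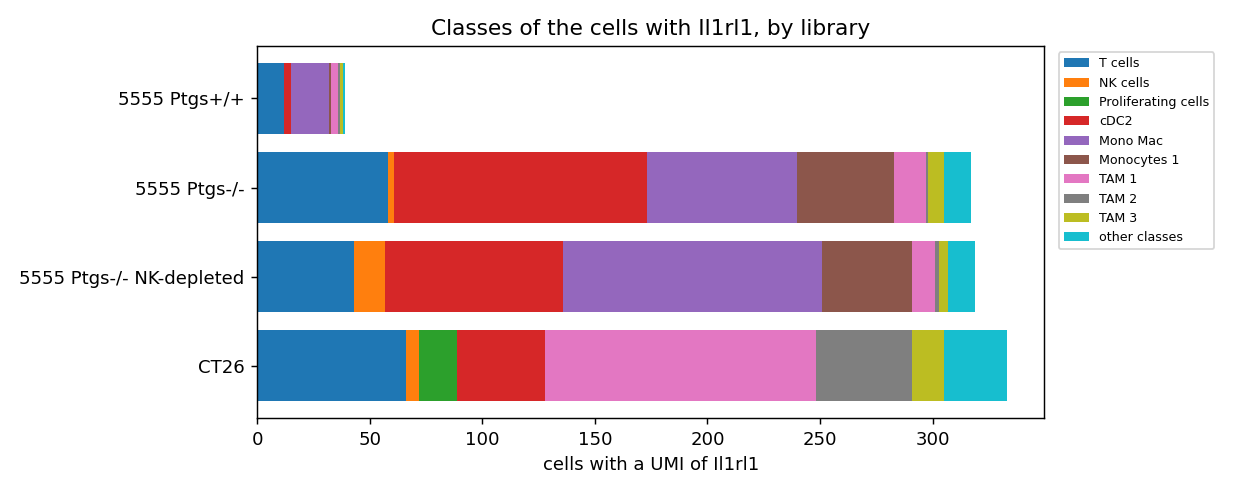
Number of cells with a UMI of Il1rl1 (x axis) in each library (y axis), coloured by the authors' cell class. Ptgs+/+ tumours have 39 such cells and the other libraries 317 to 333, with cDC2 and Mono Mac the largest parts in Ptgs-/- and NK-depleted tumours and TAM 1 in CT26.

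Cells annotated cDC2 are conventional DCs of type 2. Il1rl1 was seen in 3 of 379 cDC2s of Ptgs+/+ tumours (0.792%, 0.164 to 2.30), in 112 of 523 of Ptgs-/- tumours (21.4%, 18.0 to 25.2), in 79 of 406 after NK depletion (19.5%, 15.7 to 23.6) and in 39 of 477 in CT26 (8.18%). Ptgs+/+ tumours were low and the others high, with intervals far apart. The UMIs were 3, 173 and 130 in the 5555 libraries, a ratio of 35.0 for Ptgs-/- over Ptgs+/+ (11.8 to 171) and of 1.00 for NK-depleted over undepleted (0.790 to 1.26). At 1000 UMIs the shares were 0.264%, 4.59% and 3.94%. In Monocytes 1, Il1rl1 was seen in 1 of 226, 43 of 695 (6.19%) and 40 of 1108 cells (3.61%). The UMI ratio there was 13.8 for Ptgs-/- over Ptgs+/+ (2.36 to 553) and 0.504 for depleted over undepleted (0.331 to 0.764), so unlike cDC2s this class was lower after depletion. In both classes Il1rl1 reached the 5% filter in Ptgs-/- tumours and not in Ptgs+/+ ones, which fixed the direction of that ratio. The ratios are therefore a description, with no count over all genes beside them.

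In the Mono Mac class Il1rl1 was seen in 17 of 57 cells (29.8%, 18.4 to 43.4), 67 of 243 (27.6%, 22.1 to 33.6) and 115 of 270 (42.6%, 36.6 to 48.7) of Ptgs+/+, Ptgs-/- and NK-depleted tumours. These are the deepest cells of the data (medians 9463, 10188 and 11248 UMIs), and at 1000 UMIs the shares were 3.51%, 4.12% and 5.93%, too near to 1 UMI per cell to order. The UMI ratio was 1.07 (0.693 to 1.72) for Ptgs-/- over Ptgs+/+ and 1.19 (0.939 to 1.51) for depleted over undepleted. In CT26 the class with most Il1rl1 was TAM 1, a tumour-associated macrophage class, with 120 of 447 cells (26.8%, 22.8 to 31.2).

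Gata3 was rare in these myeloid cells. It was seen in 1 of 17, 0 of 67 and 0 of 115 Mono Mac cells with Il1rl1, in 0 of 3, 1 of 112, 0 of 79 and 2 of 39 cDC2s with it, and in 1 of 120 TAM 1 cells of CT26. Klrg1 was seen in 1 of 120 of the latter and in 2 of 39 CT26 cDC2s with Il1rl1. Over all myeloid classes of CT26, 19 of 6751 cells had both Il1rl1 and Gata3. The TAM 2 class of CT26 held 43 cells with Gata3, 36 with Klrg1 and 93 with Cd3e. Il7r and Areg were carried more often: in CT26 TAM 1, Il7r was in 54 of 120 cells with Il1rl1 and 121 of 327 without, and Areg in 29 and 74 of them (24.2% and 22.6%). A gene of monocyte-derived and conventional DCs, Cd209a, went with Il1rl1 instead, named after its values were seen. It was in 86 of 112 cDC2s with Il1rl1 and 201 of 411 without (76.8% and 48.9%) in Ptgs-/- tumours, and in 64 of 79 and 217 of 327 (81.0% and 66.4%) after NK depletion. In Mono Mac it was in 19 of 67 and 22 of 176 (28.4% and 12.5%) in Ptgs-/- tumours, and in CT26 TAM 1 in 42 of 120 and 56 of 327 (35.0% and 17.1%). Arg1 went the other way from T cells: it was seen in 13 of 67 Mono Mac cells with Il1rl1 and 92 of 176 without (19.4% and 52.3%) in Ptgs-/- tumours, in 24 of 115 and 64 of 155 after depletion, and in 6 of 120 and 57 of 327 TAM 1 cells of CT26. Median UMIs with and without Il1rl1 were 7382 and 7534 in Ptgs-/- cDC2s, 11464 and 9714 in Ptgs-/- Mono Mac and 9091 and 8329 in CT26 TAM 1.

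Areg had sources of its own among myeloid cells. In Mono Mac it was seen in 5 of 57 (8.77%), 25 of 243 (10.3%) and 59 of 270 cells (21.9%) of Ptgs+/+, Ptgs-/- and NK-depleted tumours. Its UMIs there were 57, 160 and 481, a ratio of 2.54 for depleted over undepleted (2.12 to 3.05), and the last were 50.8% of all Areg UMIs of the NK-depleted library. The 16.9% that T cells gave was the smaller part. In TAM 1 the Areg UMIs were 111 in Ptgs+/+ and 15 in Ptgs-/- tumours (ratio 0.0763, 0.0413 to 0.131), carried by 15 and 9 cells. In TAM 2 they were 85 and 7 (0.202, 0.0789 to 0.435), carried by 20 and 4 cells. Areg stayed below the 5% filter in both classes of these libraries. With UMIs held by so few cells, these intervals are too narrow. CT26 TAM 1 had the highest share of a macrophage class, 103 of 447 cells (23.0%) with 633 UMIs.

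Rora and Il7r were found in DCs and macrophages, and Klrg1 hardly at all. Rora was seen in 31.5%, 12.1% and 6.67% of cDC3, the authors' name for a DC class, in Ptgs+/+, Ptgs-/- and NK-depleted tumours (17 of 54, 7 of 58 and 3 of 45 cells). In TAM 3 it went in the opposite order, 6.96%, 13.3% and 18.3%, with UMI ratios of 1.75 (1.06 to 3.06) for Ptgs-/- over Ptgs+/+ and 1.46 (1.06 to 2.01) for depleted over undepleted. Il7r was seen in 63.0%, 69.0% and 66.7% of cDC3 and 66.1% of CT26 activated DCs. Plasmacytoid DCs of CT26 had it most often, in 175 of 204 cells (85.8%, 80.2 to 90.3), a higher share than in the T cells of any library, with an interval that meets that of T cells after NK depletion (66.0 to 83.0). This order depends on depth. At 500 UMIs per cell Il7r was seen in 27.0% of these DCs. In T cells it was then seen in 39.4%, 32.7%, 33.9% and 26.5% (Ptgs+/+, Ptgs-/-, NK-depleted, CT26), and in cDC3 in 25.9%, 10.3% and 17.8%. With all UMIs, Il7r was seen in 48.3%, 44.6% and 52.2% of TAM 3, and in TAM 2 in 15.2%, 10.4% and 2.49%, with a UMI ratio of 0.204 (0.0927 to 0.405) for depleted over undepleted. Klrg1 was seen in 0.0988%, 0.281%, 0.0271% and 0.904% of all myeloid cells.

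Finally, profiles over 55 combinations of class and library with at least 30 cells were compared, as log2(mean CPM + 5) for 11297 genes. These correlations are descriptions over profiles that share libraries and depth. The genes nearest to Gata3 included the T and NK lymphocyte genes Zap70 (r = 0.971), Lat (0.967), Lef1 (0.962) and Cd96 (0.956). Il1rl1 had no neighbour as close, with Sox13 (0.785), Gstp3 (0.762), Smco4 (0.761), Cish (0.754) and Themis (0.742). Areg was nearest to Klk8 (0.700), Espn (0.697), Tnfaip8l1 (0.696), Rarg (0.668) and Il1rl1 itself (0.668). Between members the closest pair was Gata3 and Klrg1 (0.930) and the most distant Il7r and Klrg1 (0.339), with Il1rl1 and Gata3 at 0.651.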

How the data were processed

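Droplet 3' RNA libraries of sorted CD45+ cells were used, 1 for each of 4 groups. The authors deposited cells by genes as values on the log2 scale, and the labels' protocols give the kit. Partek, mm10 and Cell Ranger 3.0.2 come from the submitters' processing notes, with no order or settings. The linear values of a cell sum to the CPM total with a gap of at most 0.00481%, so the deposited log2 values are log2(CPM + 1). Whole UMIs were recovered for 99.939% (5555) and 99.932% (CT26) of values above 0, to within 0.1 UMI plus 0.01%. Of 11872 cells in the 5555 matrix, 36 without annotation and 18 that carry 9 repeated barcodes were left out. A library of cultured DCs was not used here. Classes are the authors' deposited annotation; no cell was clustered again, no doublet caller was run and free RNA was not subtracted.

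Shares have exact Clopper-Pearson 95% intervals, UMI sums exact Poisson and UMI ratios exact conditional binomial intervals, which cover counting error only. Intervals on UMIs take no account of how many cells hold them. UMIs are counted molecules. Folds are differences of log2(mean CPM + 5) between 5555 libraries, called past 1.5-fold by size, over genes with a UMI in at least 5% of cells of either library. Thinning drew 1000 UMIs per cell without replacement, with shallower cells left out. With 1 library per group there is no test and no p-value. The members, gene lists and tests were chosen with earlier results of these data known. The rule for named genes takes the 6 members everywhere, the 5 genes most like Il1rl1, Gata3 and Areg by Pearson's r (1 of those of Gata3 is not reported here), and list genes in at least 10% of the T cells described, up to 6 a list; genes named outside it were chosen after their values were seen. Alternatives were at least 2 UMIs, thinning to 500 or 2000 UMIs, any of 6 receptor genes in place of Cd3e, pseudocounts of 1 and 20, no filter on detection, the UMI ratio, cells with at least 500 genes, and fits without the most gene-rich 5% of cells or without cells with C1qa, S100a8 or Cd79a. Leaving out cells with at least 2 mast cell or basophil genes was added after seeing the data. The scripts ran in Python 3.11.15 with NumPy 2.4.6, SciPy 1.17.1, pandas 2.3.3 and matplotlib 3.10.9, and were tested on simulated data.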

Additional observations from a re-analysis of the deposited data

How the results depend on the processing

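With 1 library per group, differences between mice or tumours cannot be told apart from differences between groups. No paired analysis was possible because each group has replicate 1 only. Depth sets the shares. In the order Ptgs+/+, Ptgs-/-, NK-depleted and CT26, T cells with at least 2 UMIs of Il1rl1 were 6.06%, 20.1%, 30.3% and 3.91%, and of Gata3 18.2%, 29.4%, 39.4% and 5.48%. At 500 UMIs per cell, Il1rl1 was in 10.6%, 11.7%, 18.3% and 3.52% of T cells and Gata3 in 24.2%, 23.4%, 36.7% and 7.30%, so that Ptgs+/+ and Ptgs-/- tumours were close for both. At 2000 UMIs, with 17 Ptgs+/+ T cells left, Il1rl1 was in 17.6%, 31.9%, 44.4% and 6.69%, and Gata3 in 35.3%, 55.5%, 56.9% and 20.9%. For co-detection in T cells, any of 6 receptor genes was in 75.0%, 84.5%, 74.4% and 87.9% of cells with Il1rl1 and 90.9%, 89.2%, 83.1% and 97.5% with Gata3. At 1000 UMIs Cd3e was in 14.3%, 3.03% and 34.9% of cells with Il1rl1 and 24.4%, 4.17% and 38.6% with Gata3 (Ptgs-/-, NK-depleted, CT26). Genes past 1.5-fold in T cells were 2428 for Ptgs-/- over Ptgs+/+ and 1939 for NK-depleted over Ptgs-/-. Without the detection filter they were 5815 and 4701, and with a pseudocount of 20 the latter were 1244. With that pseudocount the Il1rl1 fold after depletion was 0.58, no longer past 1.5-fold. By the UMI ratio the Klrg1 fold in T cells of Ptgs-/- over Ptgs+/+ tumours was 0.81 in place of 0.42, past 1.5-fold. Klrg1 in NK cells after depletion changed sign, from -0.78 to 0.19 by the UMI ratio. Leaving out the most gene-rich cells or those with C1qa, S100a8 or Cd79a moved none of the T cell shares beyond their intervals. Nor did leaving out cells with fewer than 500 genes or with mast cell or basophil genes.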
